A study of Mus musculus with 4 samples.

Results

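Glucocorticoid receptor (GR) binding after 12 h of corticosterone was described from the peak list of 1 chromatin immunoprecipitation sequencing (ChIP-seq) library, with the untreated ChIP library as the control in the same windows. All 2883 peaks of that list were taken, of 8522 peaks in the 3 lists of the series. The cells are 33AP1C9, a line derived from C127 cells of mouse mammary epithelial tissue, with stable MMTV-pp7 reporter integrations and GFP-tagged PP7 coat protein, which both groups carry. They had stood for 48 h in phenol red free medium with charcoal-dextran treated serum. The untreated group received no hormone (0 h), and the treated group received 600 nM corticosterone for 12 h. Each group is 1 library of 1 line, so nothing below has a replicate check and no test between conditions was made. The labels give an antibody cocktail for each sample in which the catalogue number of the second antibody differs between the untreated and the 12 h library, so that antibody as labelled and hormone cannot be told apart. A peak list holds no expression, so the labelled cell type could not be checked against its markers.

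GR is a nuclear receptor that waits in the cytoplasm with chaperones, binds glucocorticoids such as corticosterone, and then enters the nucleus. There it binds DNA as a pair of molecules, mostly at an imperfect palindrome called the glucocorticoid response element, in which a pair of short arms is separated by 3 bases. Many of its sites lie in enhancers far from promoters, and the genes it is best known for inducing include chaperone regulators, clock genes, kinases and phosphatases.

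The 12 h library held 97749688 tags and the untreated library 79203826. Levels below are tags in the 302 bp peak window per 10000000 tags of the library, which is the scale of the caller for the 12 h library, and the untreated tags were brought to it. Folds are ratios of these levels, with exact binomial 95% intervals. These and all other intervals cover counting error alone, because each group is 1 library. Since sequenced tags can be copies of 1 molecule, the fold intervals may be too narrow even for that. A peak was listed only if it stood at least 6-fold over the untreated library and at least 6-fold over the surrounding 10 kb, so that all peaks were higher after hormone by construction. Of 6441 candidate peaks the caller removed 42.7% for too small a fold over the untreated library and 12.6% for too small a fold over their surroundings.

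Promoter sequences show what lies under the part of the list that reaches gene starts. RefSeq promoter windows of build GRCm38.p6, the assembly of mm10, run from 250 bases before to 50 bases after a start, and 52 of 32851 windows (0.158%) lay under a 12 h peak. These belonged to 51 genes, of which 15 were protein-coding and 36 were long non-coding RNA genes, under 50 peaks. The gene types of all 32851 windows were not counted, so this split has no background and shows no preference. The response element was searched on both strands as the arm GNACA, 3 bases of any kind and the arm TGTNC, where N is any base. It was in 13 of the 52 windows (25%, Wilson interval 15.2 to 38.2%), and in 156 of all 32851 windows (0.475%). Viewed from the motif, 13 of the 156 windows that held it lay under a 12 h peak, and 143 did not.

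The stretches of promoter under a peak that carry the motif are shown for 8 genes, because they let the match be read against the peak. Each runs 5' to 3' on the strand of its gene, ends before the start site, and has the motif in capitals.
Sgk1: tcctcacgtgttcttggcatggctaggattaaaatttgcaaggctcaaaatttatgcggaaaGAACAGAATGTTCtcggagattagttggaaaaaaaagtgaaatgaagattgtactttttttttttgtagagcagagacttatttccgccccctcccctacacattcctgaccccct
Slc10a6: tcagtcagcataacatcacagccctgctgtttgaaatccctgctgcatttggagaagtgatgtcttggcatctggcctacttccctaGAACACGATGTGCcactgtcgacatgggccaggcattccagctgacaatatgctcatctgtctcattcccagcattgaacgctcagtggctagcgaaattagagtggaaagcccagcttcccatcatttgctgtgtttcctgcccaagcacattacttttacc
Mt1: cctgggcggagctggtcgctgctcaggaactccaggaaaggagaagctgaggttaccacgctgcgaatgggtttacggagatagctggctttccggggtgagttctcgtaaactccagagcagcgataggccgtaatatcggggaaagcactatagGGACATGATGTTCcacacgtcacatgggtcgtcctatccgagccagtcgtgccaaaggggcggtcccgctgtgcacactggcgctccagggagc
Map3k6: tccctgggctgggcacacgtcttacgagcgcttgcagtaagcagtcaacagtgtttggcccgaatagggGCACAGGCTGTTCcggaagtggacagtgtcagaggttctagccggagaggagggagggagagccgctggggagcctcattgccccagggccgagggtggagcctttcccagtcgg
Folh1: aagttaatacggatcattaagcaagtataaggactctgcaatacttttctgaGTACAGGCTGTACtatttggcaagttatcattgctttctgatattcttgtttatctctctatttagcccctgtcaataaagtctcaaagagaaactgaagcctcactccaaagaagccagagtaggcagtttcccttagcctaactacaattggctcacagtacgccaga
A230028O05Rik: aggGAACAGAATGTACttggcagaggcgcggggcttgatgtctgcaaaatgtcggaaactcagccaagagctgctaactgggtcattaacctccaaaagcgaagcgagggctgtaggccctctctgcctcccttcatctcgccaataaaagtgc
Gm6093: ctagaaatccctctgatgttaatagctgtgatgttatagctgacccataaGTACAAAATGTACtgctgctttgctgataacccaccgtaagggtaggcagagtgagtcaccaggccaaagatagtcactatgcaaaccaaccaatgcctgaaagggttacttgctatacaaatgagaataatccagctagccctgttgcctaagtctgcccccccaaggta
Gm33945: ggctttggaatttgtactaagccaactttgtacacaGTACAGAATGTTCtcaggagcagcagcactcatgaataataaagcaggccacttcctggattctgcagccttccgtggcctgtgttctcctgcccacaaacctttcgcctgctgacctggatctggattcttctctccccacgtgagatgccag
They lie at chr10:21993640-21993817, plus strand (Sgk1), chr5:103629404-103629653, minus strand (Slc10a6), chr8:94178839-94179088, plus strand (Mt1), chr4:133240568-133240751, plus strand (Map3k6), chr7:86775893-86776114, minus strand (Folh1), chr16:25059389-25059542, plus strand (A230028O05Rik), chr13:33569347-33569567, minus strand (Gm6093) and chr10:21573821-21574010, minus strand (Gm33945).

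The motif sat close to the summit of the peak in each of the 13 windows that held it. Its middle lay 4 to 43 bp from the peak centre, with a median of 20 bp, although the windows reached far beyond that. The 52 windows had 9293 bases under their peaks with 13 matches and 6307 bases outside them with none. The 13 matches have 26 arms, of which 8 were GAACA or its reverse complement TGTTC. Sgk1, whose kinase acts on ion channels and cell survival, had both arms in this form, as GAACAGAATGTTC from 188 to 176 bases before its start. The motif of Slc10a6, a carrier of sulfated steroids, read GAACACGATGTGC, and that of Mt1, a metal-binding metallothionein gene, read GGACATGATGTTC.

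Levels at the promoter peaks ran from 8.39 to 146.8 tags with a median of 16.8. The Slc10a6 peak held 98.6 tags after 12 h and 1.77 in the untreated library, a fold of 55.8. The Sgk1 promoter peak, centred 224 bp before the start, held 34.2 and 1.26 tags, a fold of 27.1 (14.5 to 57.0). The Mt1 peak held 12.8 and 1.26 tags, a fold of 10.1. Map3k6, a MAP kinase kinase kinase gene, had 11.2 and 1.01 tags, and Folh1, a glutamate carboxypeptidase gene, 14.6 and 2.15. The untreated library was low at all of them, and the spread between them lay in the 12 h library.

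Windows under peaks of at least 57.48 tags, the 90th percentile of the list, numbered 11. They belonged to A230028O05Rik (146.8 tags after 12 h, 0.884 untreated), 4930471E19Rik (124.4 and 2.40), Gm6093 (124.4 and 1.64), Gm33945 (112.4 and 1.52), Tns2 (111 and 2.02), Gm42190 (100.8 and 3.03), Slc10a6, Gm32287 and Gm14321 at 1 shared peak (59.4 and 1.89), and 4930543I11Rik (57.5 and 2.02). Tns2, a tensin gene, and Slc10a6 were the protein-coding members of this group. The other 8 were long non-coding RNA genes, again without a count of gene types over all windows. The Tns2 window was among the 39 that held no full motif. The centre of the Tns2 peak, 292 bp before the start, lies outside the window, so the middle of this peak was not searched. The 110 bases of the window under the peak, on the plus strand at chr15:102102684-102102793, are shown.
Tns2: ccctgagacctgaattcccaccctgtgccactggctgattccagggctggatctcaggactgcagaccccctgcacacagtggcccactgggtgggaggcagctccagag

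Other motifs stood closer to their background. The single arm AGAACA, on both strands and overlapping the full motif where that holds it, was in 34.6% of the windows under a peak and 19.0% of all windows. The AP-1 motif TGANTCA was in 9 of the 52 windows (17.3%) and 7.81% of all. Median GC content was 50.3% under a peak and 52.7% over all windows, with a median of 4 and 7 CG pairs per window. A match describes letters in the window and is not a measured contact, and windows without a match were not searched beyond these motifs. Parts of a peak outside its window were not searched either, and the Gm32838 window reached only 7 bases under its peak.

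Signal rose steeply towards the strongest peaks, while the untreated library stayed low across the list. The 12 h level ran from 6.96 to 442.8 tags with a median of 18, a 10th percentile of 9.82 and a 90th of 57.5. The untreated level in the same windows had a mean of 1.56 ± 0.714 tags (SD over 2883 windows) and a median of 1.52. In raw tags the untreated windows held 0 to 62, with a median of 12, against 68 to 4328 after 12 h. In absolute tags, the range of the treated library was thus wider than that of the untreated library. The caller's 6-fold minimum kept each untreated window below its peak by construction.

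**Figure D1:**
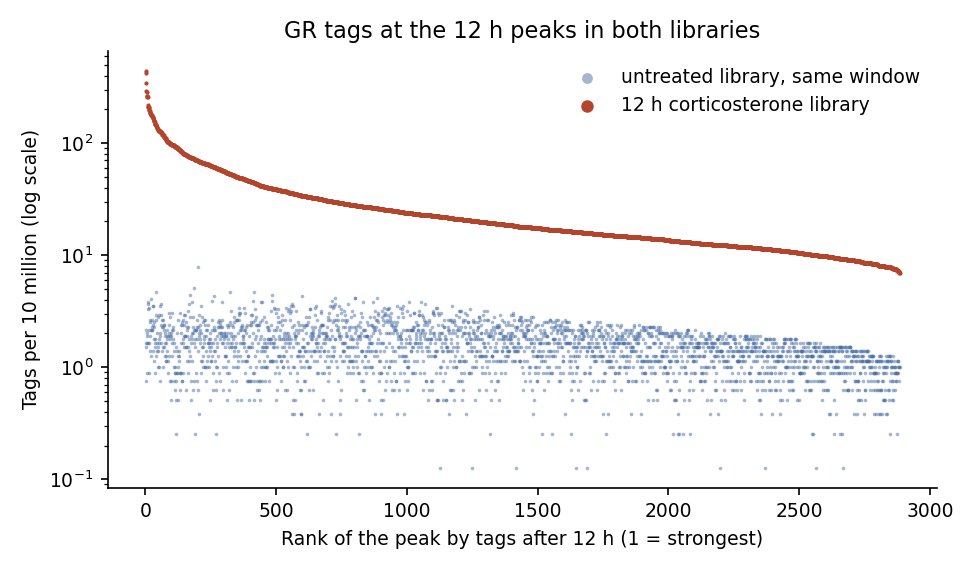
Tags per 10000000 (vertical log axis) at each 12 h peak, ranked from strongest to weakest (horizontal axis), in the 12 h library and in the untreated library in the same window. The 12 h level falls from 442.8 to 6.96 tags while the untreated points stay at or below 7.83; the 1 window without an untreated tag is not drawn.

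A small part of the list carried much of the signal. The 29 strongest peaks (1%) held 8.13% of all peak tags, the strongest 10% held 35.7%, and the weaker 50% held 22.4%. The first 546 peaks made up 50% of the tags. Peaks of at least 100 tags numbered 92, and 1610 of the 2883 had under 20. Together the peaks held 0.811% of the 12 h library.

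The fold over the untreated library had a median of 12.5 and reached 555. At least 20-fold were 820 peaks (28.4% of those tested), at least 50-fold 244 and at least 100-fold 57, while 589 (20.4%) lay under 8-fold, close above the minimum of 6. From the strongest to the weakest 10% of peaks the median fold went from 53.6 to 8.10, and the mean untreated level from 1.82 to 1.01 tags. At weak peaks the 6-fold minimum caps the untreated level, and its part in this drop was not tested. The highest folds among peaks with at least 5 untreated raw tags were inside Zbtb16 (555, interval 255 to 1514), 135 kb from 1700056E22Rik (295), 86.0 kb from Ptpn1 (270), inside Ehd3 (223) and 51.4 kb from Cdkn2aipnl (194). Inside Greb1, an oestrogen-responsive gene, the peak of 12.1 tags had no untreated tag. With a floor of 3 raw tags put in that window its fold was 31.9. The interval from the counts themselves began at 25.5-fold.

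A few windows already held more tags before hormone. The highest was 0.469 kb from St6galnac1, a sialyltransferase gene (chr11:116764405-116764707), with 7.83 tags untreated and 68.7 after 12 h, a fold of 8.78 (6.76 to 11.6). The next were 315 kb from Nr2f2 (5.05 and 72.2 tags), 12.6 kb from Pmch (4.67 and 143.9), inside Oxr1 (4.67 and 53.1) and inside Ly6f (4.67 and 44.1). In all 27 windows held at least 30 untreated raw tags. At the other end, the 3 peaks nearest to the caller's tag threshold of 75 lay 12.2 kb from Ly86, inside Fhit and 435 kb from Tox3, with 6.96, 6.96 and 7.06 tags and 0.758, 1.01 and 1.01 untreated.

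Below the 10 strongest peaks, ranks 11 to 40 ran from 210.1 down to 145.5 tags, over untreated levels of 0.884 to 4.04. Their folds lay between 44.8 and 223 with a median of 82.4. Of these 30 peaks 14 lay inside a protein-coding gene and 7 more than 25 kb from one. The lowest of these folds was near Csrp2, and the median over the whole list was 12.5. Ranks are set by the 12 h tags that also enter the fold, so this difference follows in part from the ranking.

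The peaks are given by their nearest coding gene, with the distance where the peak lies outside it; nearness does not show which gene a site acts on. Hhat, the acyltransferase that lipidates Hedgehog proteins, held rank 11 inside its span (chr1:192732986-192733288), with 210.1 tags and 3.66 untreated. Phlpp1, a phosphatase acting on AKT kinases, held 198.1 tags inside its span (chr1:106383245-106383547) with 1.64 untreated, a fold of 121 (70.4 to 227). Cblb, an E3 ubiquitin ligase gene that restrains receptor signalling, held 154.1 and 1.52 tags inside its span. The kinase gene Wee1, which holds back entry into mitosis, had a peak 4.96 kb away with 166.5 and 3.54 tags. Foxo1, a forkhead factor downstream of insulin, was the nearest coding gene to a peak of 147.2 and 1.77 tags, but at 251 kb. Another forkhead gene, Foxp1, held 186 and 2.65 tags inside its span.

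Tns1, a focal adhesion adaptor gene, held 2 of the 30 peaks in its span, with 185.8 and 170.5 tags over 1.89 and 1.39 untreated. Ehd3, an endocytic recycling ATPase gene, held 197 and 0.884 tags inside its span (chr17:73811761-73812063), which gave the largest fold of the 30 (223, 108 to 555). Micall1, which acts in endocytic recycling, held 173.3 and 2.65 tags inside its span. Csrp2, a LIM domain protein gene, lay 40.3 kb from a peak of 180.8 and 4.04 tags. The tetraspanin gene Cd82 lay 22.6 kb from one of 204.3 and 2.15, and the teneurin gene Tenm4, a transmembrane adhesion protein, held 208.6 and 3.41 inside. Lpp, a focal adhesion LIM protein gene, was nearest to the peak of 146.8 tags at 66.8 kb, which is the A230028O05Rik promoter peak whose sequence is given above. A peak 55.4 kb from Jcad, a junctional protein gene, held 166.2 and 2.40 tags.

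Aldh1a1, which makes retinoic acid from retinal, held 179.6 and 1.26 tags inside its span, a fold of 142 (77.2 to 297). Nox4, an NADPH oxidase gene, held 191.6 and 2.53 inside its span, and Fhit, a nucleotide hydrolase gene, 156.3 and 2.53. The peak nearest to Sgk1 in this group lay 96.3 kb away (chr10:21785782-21786084) with 187.5 and 1.39 tags, well above the 34.2 at the Sgk1 promoter. Inside their spans Zhx3, a zinc finger and homeobox gene, held 173.4 and 2.27 tags, and Obp2a, a lipocalin gene, 160.5 and 1.77. The other peaks lay between 0.692 and 173 kb from Asb4, Tmem106b, Prune2, Atp6v1g1, Gdf6, Sumf1, Eif3h, Frmd8 and Tarm1, at 145.5 to 209.7 tags.

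Every autosome and chromosome X carried 12 h peaks, at densities that differed about 3-fold. Per Mb between the first and last annotated gene, chromosome 13 had most (174 peaks, 1.48 per Mb), followed by chromosome 19 (1.43), and chromosome X had fewest (82 peaks, 0.480 per Mb). Chromosomes 14 (0.778) and 12 (0.884) were also low, and the value over all 20 was 1.10. Chromosome 13 also led per 100 protein-coding genes, with 21.0, against 8.49 on X and 8.52 on the gene-rich chromosome 7. Over the 20 chromosomes, which share 1 pair of libraries, peak density and gene density had a Spearman correlation of 0.61.

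Chromosomes with strong peaks also had more untreated tags in the peak windows. The median 12 h level was highest on chromosomes 3 (25 tags), 15 (24.8), 7 (23.1) and 10 (22.7), and lowest on 12 (12.6) and X (13.1). The median untreated raw tags in the same windows were 15, 17, 14 and 15 on the former, and 8 and 7 on the latter. The Spearman correlation of mean untreated tags with median 12 h tags was 0.96 over 20 chromosomes. For the median fold the correlation with mean untreated tags was weaker and negative, at -0.51. The median fold was lowest on chromosome 15 (10.9) and highest on X (15.9), but it was also low on chromosome 18 (10.985), where the median untreated window held 10 raw tags. Since a peak had to stand 6-fold over the untreated window, the caller ties both values at weak peaks, and its part in the correlation was not tested.

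**Figure D2:**
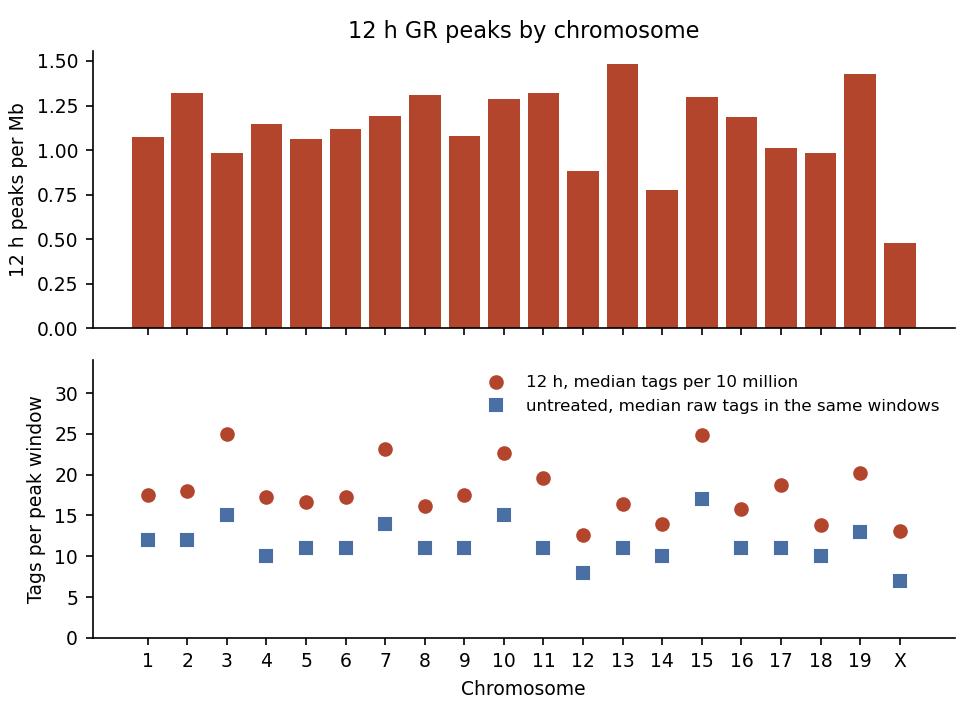
Upper panel, 12 h peaks per Mb on each chromosome; lower panel, the median per peak window of the 12 h tags per 10000000 (circles) and of the raw untreated tags (squares). Density runs from 0.480 on X to 1.48 on 13, and circles and squares are high together on 3, 7, 10 and 15.

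Most peaks had no other within 10 kb. The median gap between consecutive peaks was 322 kb, and the median distance to the nearest other peak was 101 kb. Another peak lay within 100 kb for 49.8% of peaks and within 10 kb for 359 (12.5%, Wilson interval 11.3 to 13.7%), while 249 (8.64%) had none within 1 Mb. Chained at 10 kb, the list fell into 2524 single peaks and 168 groups, of which 151 were pairs, 14 had 3 peaks, 2 had 4 and 1 had 7. Peaks of the groups had a median of 22.9 tags against 17.4 for single ones, and they held 16.6% of peak tags. Of the strongest 10% of peaks 18.4% had a neighbour within 10 kb, and of the weakest 10% 7.61%.

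Pairs of peaks were scarcer up to 5 kb apart than just beyond. There were 48 neighbouring pairs up to 5 kb apart, or 9.6 per kb, and 143 between 5 and 10 kb, or 28.6 per kb, after which the number fell to 20 per kb at 10 to 15 kb and 11.2 at 20 to 25. Up to 5 kb the stronger peak of a pair had at most 2.89 times the tags of the weaker, and between 5 and 10 kb up to 22.7 times. The caller compared each peak with the 10 kb around it, which takes in a strong neighbour up to 5 kb away, and dropped 810 candidates on this count. The part of this filter in the spacing was not tested.

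**Figure D3:**
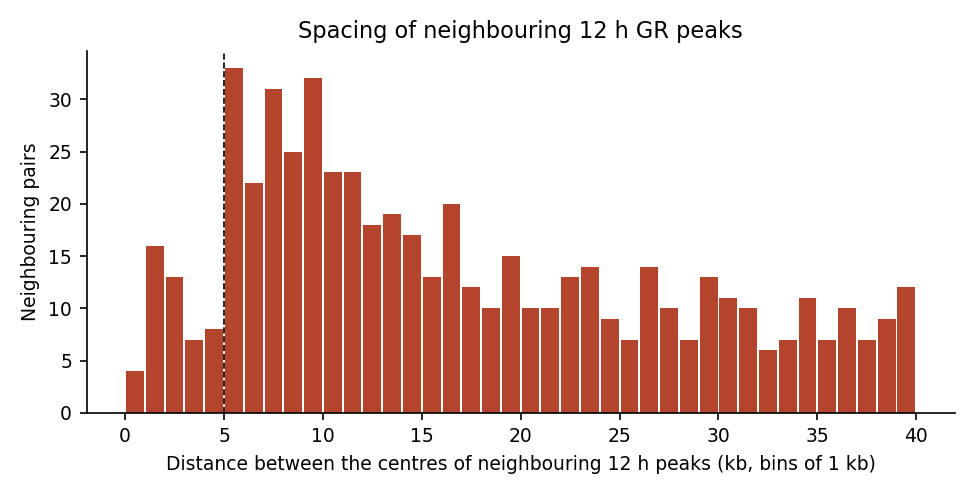
Number of neighbouring 12 h peak pairs (vertical axis) by the distance between their centres in bins of 1 kb (horizontal axis), up to 40 kb. The dashed line marks 5 kb, the reach of the caller's 10 kb local comparison to either side, and 48 pairs lie to its left against 143 in the next 5 kb.

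The largest group lay next to Tsc22d3, which encodes the glucocorticoid-induced leucine zipper protein GILZ. It had 7 peaks over 32.2 kb (chrX:140505831-140538044), with 92.1, 73.1, 98.2, 34, 48.6, 105.5 and 11.4 tags in order along the chromosome, and 34 untreated raw tags in the 7 windows together. The nearest coding genes to its peaks were Tsc22d3 and Prps1. Zbtb16, a zinc finger factor gene, held a group of 4 in its span (chr9:48723613-48740441), with 420.8, 18.5, 143.9 and 92.7 tags and 43 untreated raw tags. A group of 4 weak peaks, of 15.1, 18.6, 16.1 and 28.8 tags, lay in a gene-poor region up to 729 kb from Cited2 (chr10:16993928-17012865). Of the groups of 3, the strongest were 86.0 kb from Ptpn1 (442.8, 48.6 and 63.2 tags) and inside Tns1 (22.5, 170.5 and 94.7).

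At the scale of 1 Mb the densest stretch was on chromosome 2 from 167 to 168 Mb, with 13 peaks and 758.8 tags around Ptpn1, Cebpb, Snai1 and B4galt5. The next held 11 peaks at 17 to 18 Mb of chromosome 10, nearest to Cited2 and Txlnb, but with 188 tags. Chromosome X combined the largest group with the longest empty stretches, of which 1 ran 22.7 Mb without a peak, from 18942754 to 41602157. The 4 longest gaps of the list were all on X, and the next was on chromosome 12.

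By gene, 879 of 21631 protein-coding genes (4.06%) had a peak in their span, 201 had 2 or more and 52 had 3 or more. Genes with a peak inside were long, with a median of 106 kb against 17.3 kb over all. Longer spans cover more bases in which a peak can fall, and this comparison was not corrected for that. Tns1 and Csmd3, a large transmembrane protein gene, had 8 each, but over 214 and 1212 kb, or 3.73 and 0.660 per 100 kb. The 8 Tns1 peaks summed to 610.4 tags over 13.1 untreated, and the 8 of Csmd3 to 292 over 16.0. Zbtb16 had 7 (883.7 tags over 9.09) and Rarb, a retinoic acid receptor gene, 7 (176.4 over 11.7). Nkain3 had 6, and the transcription factor gene Sox5, the RNA-binding protein gene Celf2, the autophagy gene Vmp1 and the lipid transfer protein gene Vps13d had 5 each. Among the 14 genes with 4, the largest sum was that of Bcl2l1, which encodes the anti-apoptotic protein BCL-XL, with 308.6 tags over 8.96 in 75.1 kb.

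Stronger peaks were more sharply focused. The focus ratio, the fraction of tags on the side of the centre where a point source would put them, had a median of 0.838 and a range of 0.603 to 0.994. Its median went from 0.907 in the strongest 10% through 0.821 in the fifth group of 10% to 0.802 in the weakest. Of all peaks 16.8% were at 0.9 or above and 3.40% under 0.7. Over the 2883 peaks, tags and focus ratio had a Spearman correlation of 0.44, both being read from the same tags.

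**Figure D4:**
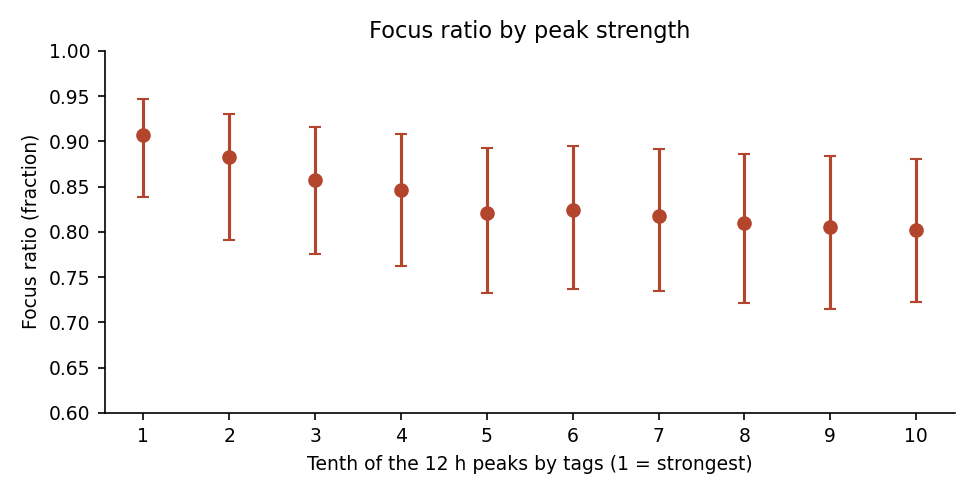
Focus ratio (vertical axis, from 0.6 to 1) by group of 10% of the 12 h peaks, ordered from the strongest to the weakest (horizontal axis). Points are medians and bars run from the 10th to the 90th percentile of peaks; the median goes from 0.907 to 0.802 and the lower ends go from 0.839 to 0.723.

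Among the strongest 10%, the focus ratio was highest 86.0 kb from Ptpn1 (0.979), at the Gm6093 promoter shown above (0.974), inside Zc3h3 (0.968), 12.4 kb from Nufip1 (0.966) and inside Tns1 (0.963). It was lowest 7.52 kb from Zfp697 (0.68, 127.3 tags), 17.3 kb from Tmem106b (0.68, 65.7 tags), 88.5 kb from Rnf152 (0.728), 67.3 kb from Zfp36l2 (0.748, 137.3 tags) and 11.9 kb from Myo16 (0.752). These strong but less focused sites had folds of 24.8 to 83.7 over the untreated library. The value farthest from the rest was that of a peak 281 kb from Gm10573, which was chosen after its values were seen. It had a focus ratio of 0.994 and a fold of 5106 over its surroundings at 16.3 tags, where the next highest local fold in the list was 139.

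Most peaks lay away from gene starts. A protein-coding gene contained 40.5% of the peak centres (38.7 to 42.3%), another 22.7% lay within 25 kb of one and 18.1% more than 100 kb away. For the 2797 peaks on chromosomes with promoter windows, which leaves out chromosome 18, the median distance to the nearest RefSeq start was 29.0 kb. Within 1 kb of a start lay 104 (3.72%), within 5 kb 13.8% and within 25 kb 45.5%. The strongest and weakest peaks had similar values: 40.6% of the strongest and 41.5% of the weakest 10% were inside a gene, and their median distances to a start were 26.9 and 31.1 kb. The share within 5 kb of a start was 15.7% and 14.5%. How much of the genome lies inside genes or at these distances was not computed, so the values show no preference of the peaks.

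Gene lists were read against all protein-coding genes, of which 2019 of 21631 (9.33%) had a 12 h peak in the span or within 25 kb. The median level of the strongest such peak over those genes was 19.1 tags. The share rose with gene length, from 5.23% of genes up to 10 kb to 31.1% of those over 200 kb, so the median length of each list is given beside its count. The members of all lists came to 272 genes, all found in the RefSeq table, of which 72 had a peak. For 9 of the 72 another coding gene lay nearer to it. The lists and their members were chosen with earlier results of these data known, so a list share above 9.33% does not show enrichment.

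**Figure D5:**
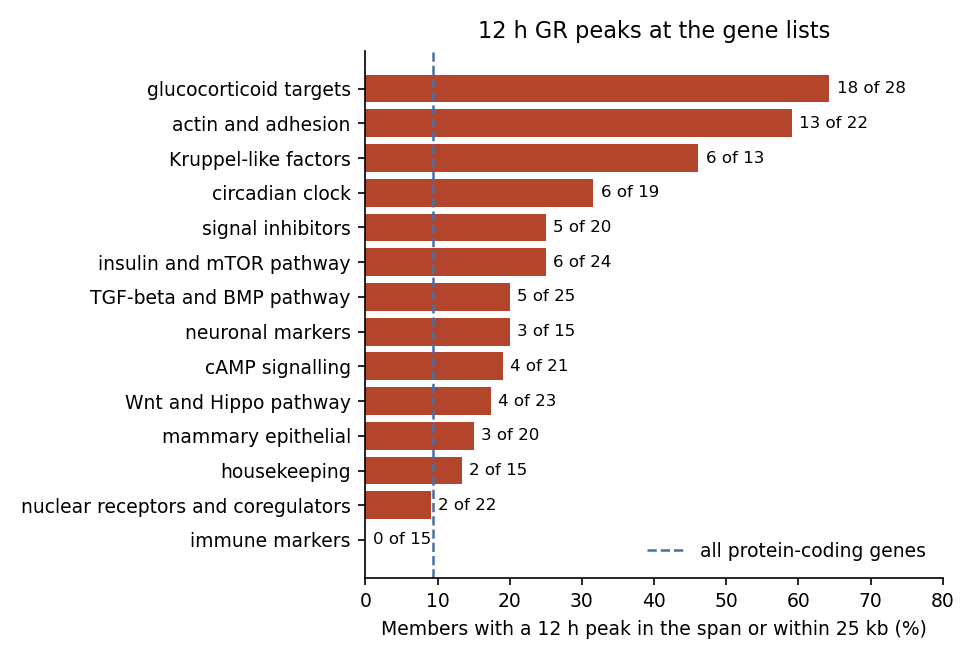
Share of the members of each gene list with a 12 h peak in the gene span or within 25 kb (bars, with counts beside them), and the share over all protein-coding genes (dashed line, 9.33%). The glucocorticoid target, actin and adhesion, and Krüppel-like factor lists lie at 64.3, 59.1 and 46.2%, and the immune marker list at 0. The lists were chosen with earlier results of these data known.

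Established glucocorticoid targets had a peak at 18 of 28 members (median length 11.4 kb), with a median of 41.2 tags for the strongest, and 11 had more than 1. Behind Zbtb16 with 420.8 tags came Fkbp5, whose product joins HSP90 and lowers the hormone affinity of GR, with 283.7 tags over 1.89 untreated (150-fold, 90.7 to 268). Tsc22d3 had 105.5 over 1.14 (92.8-fold), and Ampd3, an AMP deaminase gene, 104.1 over 2.15 (48.5-fold). Next were Ddit4, a repressor of mTOR signalling (102.9 tags, 22.5 kb away and nearer to Anapc16), the clock repressor Per1 (90.3), the cell cycle inhibitor Cdkn1a (44.2) and the glutamine synthetase gene Glul (37.2). Mt1 and Mt2 counted the same 3 peaks, of 46.2, 12.8 and 12 tags. Pdk4, an inhibitory kinase of pyruvate dehydrogenase, had 29.2 tags and Errfi1, a feedback inhibitor of EGF receptors, 14.6 over 0.379. No peak was listed for Cdkn1c, Nfkbia, Tiparp, Cebpd, Cebpb, Angptl4, Lcn2, Rgs2, Bcl6 and Gadd45g within 25 kb.

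Actin and adhesion genes had a peak at 13 of 22 members. Their median length was 97.1 kb, and of all coding genes of 50 to 100 kb 13.1% had one. Pdlim5, a scaffold at actin fibres, held the highest level, 345.2 tags over 2.15 (161-fold), and Tns1 had 8 peaks from 13.3 to 185.8 tags. The rest were weaker: the fibronectin receptor subunit gene Itga5 had 37.3 tags over 1.89, the integrin gene Itgb6 33.4, Tns3 31.5, and the actin cross-linkers Actn1 and Actn4 30.6 and 24.9. Non-muscle myosin Myh9, Itgb1, Lims1, Lpp, Mical2 and paxillin (Pxn) lay between 9.1 and 21.8 tags, where folds were 7.13 to 14.4. The median of the strongest peak, 24.9 tags, was little above that over all genes.

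Krüppel-like factors, zinc finger regulators of transcription, had a peak at 6 of 13 genes, although their median length was 14.7 kb. Klf13 held 259.5 tags over 1.64 inside its span, a fold of 158 (92.3 to 297). Klf2 had 44.8 over 1.52, Klf9 38.1 over 0.884, and Klf15 had 3 peaks of 19.6, 12 and 37.2 tags. Klf6 and Klf12 had 25.5 and 22.4, and the Klf6 window already held 3.03 tags untreated (8.42-fold).

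Metabolic and clock regulators followed. Of 24 insulin and mTOR pathway genes (median length 70.1 kb) 6 (25%) had a peak, beside 13.1% of all coding genes of 50 to 100 kb. The median of their strongest peaks, 77.9 tags, was the highest of any list but rests on these 6 genes. Among them is Ddit4, counted above with the glucocorticoid targets, whose peak of 102.9 tags lies nearer to Anapc16. Deptor, an inhibitory partner of mTOR, held 127.2 tags over 3.54 (36-fold, 24.8 to 54.4), the stress-responsive mTOR inhibitor Sesn1 87.7 over 1.39, and Foxo3 3 peaks of 52.5, 68.1 and 14.5. Akt2 and Irs2, an insulin receptor substrate gene, had weak peaks of 11.6 and 9.92 tags at folds of 7.07 and 8.73. Of 19 circadian genes (median length 30.4 kb) 6 had a peak, where 8.86% of all coding genes of 20 to 50 kb had one: Per2 with 129.3 tags over 1.01, Tef with 127.8 over 2.02 at a site nearer to Tob2, Per1, Nfil3 with 20.9, Npas2 with 20.8 and Ciart with 16.8.

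Other signalling lists had a peak at 17.4 to 25% of members. Signal inhibitors had 5 of 20 (median length 12.5 kb), led by Rasa3, a RAS GTPase-activating protein gene (74.2 tags over 0.758), and the ubiquitin ligase gene Nedd4l (26.3 over 2.15). TGF-beta and BMP genes had 5 of 25 (69.0 kb), with the co-receptor Tgfbr3 at 85.7 over 0.884 tags, the BMP modulator Bmper at 32.5, the inhibitory Smad6 at 28.6, the activin antagonist Fst at 22.8 and the ligand Tgfb2 at 12.8. Cyclic AMP signalling genes had 4 of 21 (121 kb), with Pde4d, a phosphodiesterase gene, at 112 over 1.89 and 3 further peaks, and Prkce, Rapgef2 and Prkar1a at 18, 12 and 10.3. Wnt and Hippo genes had 4 of 23 (56.6 kb), with the factor Tead4 at 68.6 over 0.631 (109-fold), the receptors Lgr4 and Lrp5 at 31 and 20.5, and Amotl2 at 11.5. Of all coding genes, 7.38% of those of 10 to 20 kb had a peak, the length class of the signal inhibitor median. The share was 13.1% at 50 to 100 kb, the class of the TGF-beta and Wnt medians. At 100 to 200 kb, the class of the cyclic AMP median, it was 16.8%. The cyclic AMP, Wnt and TGF-beta lists, at 19.0, 17.4 and 20% of members, were thus near the background.

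Nuclear receptors and coregulators had 2 of 22 (9.09%, median length 83.5 kb), beside 9.33% of all coding genes and 13.1% of those of 50 to 100 kb. Rarb had 7 peaks from 9 to 75.7 tags. The gene of GR itself, Nr3c1, had none within 25 kb.

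The remaining lists, for the tissue of origin, for other cell types and for constant genes, had a peak at 0 to 3 members each. Mammary epithelial genes had 3 of 20 (median length 6.32 kb, where 5.23% of all coding genes of up to 10 kb had one), with Krt7 at 66.2 over 2.65 tags and the neighbours Krt8 and Krt18 sharing a peak of 27.5 over 2.53. Neuronal markers had 3 of 15 (40.7 kb, beside 8.86% of genes of 20 to 50 kb), with Map2 at 58.3, Gad2 at 45.6 and Rbfox3 at 8.59 tags. Housekeeping genes had 2 of 15 (14.0 kb, beside 7.38% of genes of 10 to 20 kb), Hprt with 32.9 tags at 16.9 kb and nearer to Phf6, and Tbp with 11.7. Immune markers had 0 of 15 (10.9 kb), within 25 kb or 100 kb.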

How the data were processed

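The submitters' processing notes name bcl2fastq 2.17, Bowtie2 2.2.6, HOMER (no version) and build mm10. Regions were called by findPeaks in factor style at a false discovery rate of 0.001 and a tag threshold of 75, against the untreated ChIP library, per the file headers. The signal is the deposited normalised tag count, scaled by the authors to 10000000 tags. The deposited control tags are raw, printed as 0.5 for an empty window, and were divided by the 79203826 untreated tags. Undoing the authors' scaling of the 12 h tags to the control returned whole numbers, within 0.1, for 100% of the 12 h values. The deposited score ranked peaks in an alternative and the threshold only. The focus ratio is a fraction deposited by the authors. The deposited fold over control sets the counts of peaks past a fold, and the deposited fold over the local region is the caller's.

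Peaks were ranked by normalised tags. Genes and promoter windows came from RefSeq tables of GRCm38.p6. Named peaks and genes are ranks 11 to 40, the 5 highest folds with at least 5 untreated tags, the 5 highest untreated windows, the 5 highest and lowest focus ratios of the strongest 10%, the 10 genes with most peaks, the 5 largest groups at 10 kb, up to 4 members per list, promoter windows at or above the 90th percentile and the 3 peaks nearest the threshold. Further list members were named after their values were seen. The values of 1 list member are not reported here. The members and lists were chosen with earlier results of these data known. Python 3.11.15, pandas 2.3.3 and scipy 1.17.1 were used, and the functions for spacing, gene assignment, motifs and intervals were tested on simulated data.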

Additional observations from a re-analysis of the deposited data

Results flagged for a closer look

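In the untreated list, which the 12 h values use for its tag total alone, 1 peak stood 44.2-fold above the input control, 148 bp from Pgk1 and with 40 tags per 10000000. No 12 h peak overlapped it. It was noted because it is a signal in a list that the comparison does not use, and its source was not tested.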

How the results depend on the processing

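Of the listed peaks 970 passed doubled minimums for tags and both folds, and 1512 a doubled minimum of the fold over untreated alone. In the former, 5.57% had a neighbour within 10 kb and the median focus ratio was 0.887. With 1 raw tag added to both libraries the median fold was 11.4, and with untreated tags subtracted the strongest 10% held 37.2% of tags. A neighbour lay within 5 kb for 3.33% and within 25 kb for 25.5% of peaks, and 51.0% were inside any annotated gene. The stricter arms AGAACA and TGTNCT, 3 bases apart, were in 2 of the 52 promoter windows under a peak (3.85%). Of all 32851 windows 13 (0.0396%) held them. With at most 1 mismatch the motif was in 57.7%, against 9.43% of all windows, an alternative chosen after seeing the data, as was an overlap of at least 150 bp (36.1% of 36 windows).

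Within 100 kb, 4891 of 21631 coding genes (22.6%) had a peak. So did 9 TGF-beta and BMP (36%), 12 insulin and mTOR (50%), 5 mammary epithelial (25%) and 6 neuronal genes (40%). For nuclear receptor genes it was 7 (31.8%), for housekeeping genes 5 (33.3%) and for signal inhibitors 8 (40%). Within 10 kb, 1 housekeeping (6.67%) and 3 signal inhibitor genes (15%) had one, beside 6.24% of all coding genes. Gene length was not taken into account here. These limits widen or narrow what is counted. The other 26 of 47 alternatives stayed within 1.5 times the count or within the interval of the value. Depth limits weak peaks most, where 68 raw tags stand over 6 to 8. No paired analysis was possible because each group has 1 library, which also leaves no replicate to leave out.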
